A study of Arabidopsis thaliana with 72 samples.

Results

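The wall-associated kinases WAK1 to WAK5 are 5 genes among the 33602 in the count matrix, taken by their identifiers: AT1G21250 (WAK1), AT1G21270 (WAK2), AT1G21240 (WAK3), AT1G21210 (WAK4) and AT1G21230 (WAK5). The family was selected on measured values: it holds WAK3, whose fitted log2 response to estradiol at 48 h was the highest in the PD-plug line relative to Col-0. Every value of a member that comes from that contrast is therefore a description and carries no test. The libraries came from Arabidopsis thaliana leaves of 3 genotypes, icals3m, PD-plug and the Col-0 wild type. The first 2 carry estradiol-inducible LexA constructs, LexA::icals3m and LexA::PD-Plug, which are described in the labels as closing plasmodesmata, the channels that connect plant cells. Leaves of all 3 genotypes were painted with 20 µM estradiol or, as the mock, with 0.1% DMSO, with 0.01% Silwet L-77 as wetting agent, and were harvested at 12, 24, 48 and 72 h. Each of the 24 groups had 3 biological replicates, each pooling leaves of 4 plants, so no value belongs to a single plant. The cell type in which the constructs act and the number of independent lines per construct are not given in the sources used here. The labels name no construct for Col-0, whose leaves show how estradiol and mock treatment differ without an induced construct. Whether the estradiol solution also held DMSO is not given in the sources used here. Plants were 5 weeks old and grew at 22 °C with 10 h of light a day.

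WAKs are receptor-like kinases of the plasma membrane whose extracellular part reaches into the cell wall and binds pectin. They are known to bind both polymeric pectin, in connection with cell expansion, and the short oligogalacturonides released when pectin is broken down by pathogens or wounding, in connection with defence signalling. In Arabidopsis leaves, transcripts of several family members are known to be induced by salicylic acid and by wounding.

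The 5 genes form a cluster on chromosome 1 and point the same way (TAIR10.1, plus strand). The order is WAK4 (7423704 to 7427041), WAK5 (7429895 to 7432477), WAK3 (7434235 to 7436830), WAK1 (7439171 to 7442113) and WAK2 (7444749 to 7448483), a span of 24.8 kb with gaps of 1757 to 2853 bases between successive WAK genes. The annotation places 5 other genes inside the span, 2 of them protein-coding. All have 3 exons except WAK4, which has 4. The coding sequences are 79.1% to 85.8% identical between pairs, highest for WAK1 and WAK3, and the longest identical run is 127 bases, shared by WAK1 and WAK3. Of all 50-base stretches of the WAK1 transcript, 4.67% also occur in WAK2 and 2.87% in WAK3, so reads from these stretches could be assigned to either gene. The last 994 bases of WAK2 overlap the protein-coding gene AT1G21280 on the minus strand, and whether the counting used strand is not given in the sources used here. WAK1 and WAK2 were the members with the highest levels, and the sequences before their annotated starts are the most alike of the family. A link between this likeness and their levels was not tested. Over the 250 bases before the annotated start, WAK1 and WAK2 were 86.9% identical in 214 aligned bases, against 52.3% to 62.8% for every other pair. Both windows are shown, with the longest run they share, 30 bases, in capitals (chr1:7438921-7439170 and chr1:7444499-7444748, RefSeq, TAIR10.1).
WAK1: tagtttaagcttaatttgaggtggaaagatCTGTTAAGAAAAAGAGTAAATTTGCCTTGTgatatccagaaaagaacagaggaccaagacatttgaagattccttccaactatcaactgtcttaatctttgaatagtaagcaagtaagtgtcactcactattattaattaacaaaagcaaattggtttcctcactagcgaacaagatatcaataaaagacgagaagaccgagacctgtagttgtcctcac
WAK2: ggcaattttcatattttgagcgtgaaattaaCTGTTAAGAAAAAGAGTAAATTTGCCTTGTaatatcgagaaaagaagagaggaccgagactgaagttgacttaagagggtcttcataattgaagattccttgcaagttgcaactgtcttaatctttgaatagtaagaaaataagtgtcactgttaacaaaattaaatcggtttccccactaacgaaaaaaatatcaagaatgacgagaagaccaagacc
The WAK3 window (chr1:7433985-7434234) is shown because WAK3 led the choice of the family and because it holds the most motif matches. Its capitals mark TTGAC, the core of the W-box bound by WRKY factors, found once on each strand, and TGACG, the core of the as-1 element bound by TGA factors. The letters TTGACG hold both motifs, and GTCAA is TTGAC on the other strand. These are matches of the core letters alone, not of whole binding sites, and binding was not tested.
WAK3: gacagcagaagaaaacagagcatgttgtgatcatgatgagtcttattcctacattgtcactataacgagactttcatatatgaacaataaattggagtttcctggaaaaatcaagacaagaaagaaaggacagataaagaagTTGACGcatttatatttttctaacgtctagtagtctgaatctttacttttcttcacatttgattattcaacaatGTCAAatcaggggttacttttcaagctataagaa
On either strand, TTGAC occurred in the windows of WAK2, WAK3, WAK4 and WAK5 and not in that of WAK1, and TGACG occurred in those of WAK2 and WAK3. Of 27443 protein-coding genes, 44.9% held TTGAC and 18.6% held TGACG in a window of the same length, so these matches are common.

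**Figure D1:**
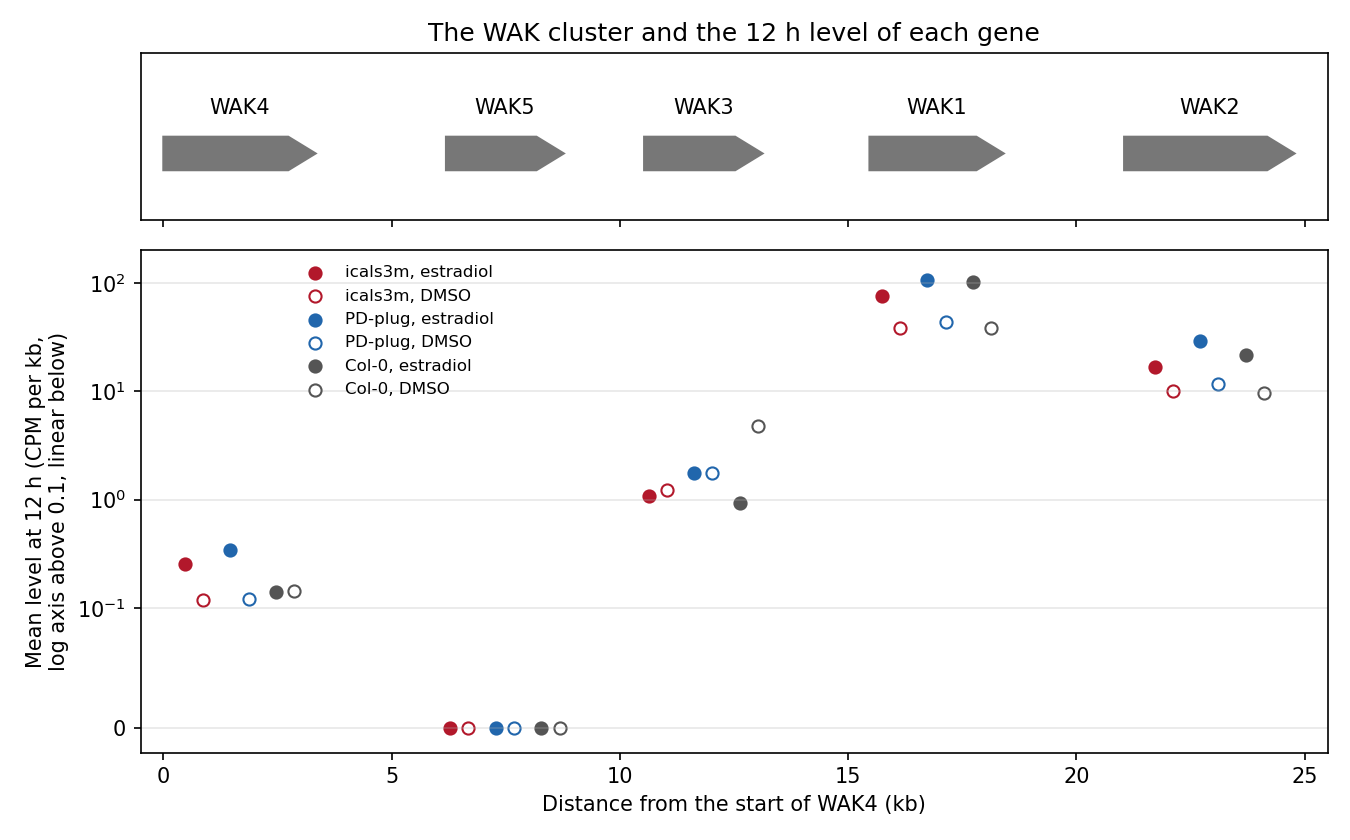
Top, the 5 WAK genes drawn to scale by distance from the start of WAK4 in kb, with arrowheads in the direction of transcription. Bottom, the mean level of each gene at 12 h in CPM per kb of transcript (3 libraries a group, symmetric log axis that is linear below 0.1), filled for estradiol and open for DMSO. WAK1 is highest at 38.6 to 106 CPM per kb, and WAK5 is at 0 in every group.

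Levels are given as CPM, counts scaled to the size of each library, and as CPM per kb of transcript where genes are compared with each other. Library totals ran from 33207020 to 55367880 counts, and 3 counts, the lowest amount treated here as distinguishable from 0, correspond to 0.0445 to 0.0941 CPM. The induced genes matched the labels: CALS3, the callose synthase gene of the icals3m construct, had 1447 to 5857 CPM in icals3m estradiol leaves, against 168 to 285 CPM in icals3m DMSO leaves. In Col-0 it had 93.9 to 119.9 CPM in estradiol leaves and 79.2 to 120.2 CPM in DMSO leaves, so the DMSO leaves of the 2 genotypes did not overlap. mCherry, counted in the other of the 2 deposited matrices, had 3065 to 35000 CPM in PD-plug estradiol leaves, against 7.15 to 99.5 CPM in PD-plug DMSO leaves and at most 0.270 CPM in Col-0 DMSO leaves. Among the 4 leaf photosynthesis markers RBCS1A had 8371 to 16600 CPM, RCA 2824 to 13580 CPM and RBCS2B 1458 to 7632 CPM, while LHCB2.1 ran from 2.67 to 6319 CPM. The root markers COBL9 and EXPA7 were at 0 in all 72 libraries and CASP1 reached 0.0792 CPM at most, while the flower markers AG and AP3 reached 1.08 and 0.251 CPM and the seed markers OLEO1 and CRA1 reached 0.0748 and 0.1504 CPM. One library stood apart: PD-plug 48 h estradiol replicate 1 had 1.37 times as many counts in the main matrix as in the other matrix, against 1.90 to 2.07 times in the other libraries. In whole leaves, fewer cells that express a gene and less RNA per cell cannot be told apart.

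WAK1 and WAK2 were expressed in every library, WAK3 and WAK4 were near the limit of detection after 12 h, and WAK5 was not detected. Of the 5 members, 4 passed the filter on low counts and were tested. WAK1 averaged 3343 counts per library and WAK2 averaged 1645 counts. WAK3 averaged 83.6 counts and was at 0 in 7 libraries, and WAK4 averaged 11.6 counts and was at 0 in 22 libraries. WAK5 had 0 counts in all 72 libraries of both matrices, which at these depths allows up to 0.0445 to 0.0941 CPM per library, counting error only. The 4 tested members were compared in 27 contrasts, and 26 of the resulting 108 gene results passed an adjusted p of 0.05 (edgeR quasi-likelihood test, Benjamini-Hochberg over 21241 genes). Nothing in the labels says how the replicates were separated beyond the word biological, so the p-values measure the spread between these samples.

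In DMSO leaves the first question was how the family behaves with time and genotype in leaves that received no estradiol. The harvests at 24, 48 and 72 h fell whole days after treatment and that at 12 h did not. Between 12 h and the later times, time after treatment and time of day therefore cannot be told apart, and time of day was not tested. WAK1, a pectin and oligogalacturonide receptor, was highest at 12 h. In icals3m DMSO leaves the CPM values were 111, 114 and 94.8 at 12 h, 14.7, 17.6 and 20.8 at 24 h, 9.31, 8.29 and 12.1 at 48 h and 7.07, 8.76 and 12.8 at 72 h. In PD-plug DMSO leaves the CPM values were 122, 126 and 113 at 12 h, 27.5, 23.1 and 26.6 at 24 h, 6.89, 7.74 and 4.82 at 48 h and 7.003, 12.4 and 8.25 at 72 h. In Col-0 DMSO leaves the CPM values were 80.4, 121 and 120.4 at 12 h, 23.5, 25.51 and 15.5 at 24 h, 17.0, 6.59 and 10.0 at 48 h and 7.78, 6.77 and 17.5 at 72 h. In each genotype the 12 h libraries all lay above those of the later times. At 24 h against 12 h, 32.4% of all tested genes lay below without overlap in icals3m, 33.2% in PD-plug and 33.8% in Col-0. These shares also stand beside WAK2 and WAK3 below. WAK1 fell at 24 h against 12 h, with log2 changes of -2.60 in icals3m (SE 0.36, adjusted p = 1.9e-08), -2.22 in PD-plug (SE 0.35, adjusted p = 3.4e-07) and -2.32 in Col-0 (SE 0.36, adjusted p = 1.4e-07). It fell further at 72 h against 24 h, with changes of -0.89 in icals3m (SE 0.36, adjusted p = 0.045), -1.47 in PD-plug (SE 0.36, adjusted p = 0.00080) and -1.01 in Col-0 (SE 0.36, adjusted p = 0.021). The icals3m call was lost without 4 of its 6 libraries taken singly (24 h replicate 2 or 3, 72 h replicate 1 or 2) and with no filter on low counts. The Col-0 call, whose groups overlap, was lost without 24 h replicate 1 or 2 or 72 h replicate 1 or 2, and when only these 6 libraries were fitted.

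WAK2, the pectin-binding member linked to cell expansion, changed less than WAK1 between 12 and 24 h. In icals3m DMSO leaves the CPM values were 37.4, 38.3 and 33.4 at 12 h, 18.7, 18.4 and 24.5 at 24 h, 17.0, 22.1 and 26.9 at 48 h and 13.8, 11.8 and 13.9 at 72 h. In PD-plug DMSO leaves the CPM values were 42.4, 41.5 and 42.0 at 12 h, 18.6, 22.9 and 19.1 at 24 h, 17.6, 17.3 and 19.7 at 48 h and 15.3, 19.5 and 16.2 at 72 h. In Col-0 DMSO leaves the CPM values were 26.4, 39.7 and 38.4 at 12 h, 21.7, 22.5 and 19.2 at 24 h, 20.5, 17.5 and 17.8 at 48 h and 18.9, 15.3 and 21.7 at 72 h. The 12 h libraries were the highest in each genotype, with Col-0 replicate 1 the nearest to the later times. WAK2 fell at 24 h against 12 h, with log2 changes of -0.82 in icals3m (adjusted p = 9.8e-05), -1.05 in PD-plug (adjusted p = 1.4e-06) and -0.72 in Col-0 (adjusted p = 0.00046), each with an SE of 0.18. At 72 h against 24 h the change was -0.64 in icals3m (SE 0.18, adjusted p = 0.0043), a call lost without 24 h replicate 3. The changes of -0.25 in PD-plug (adjusted p = 0.31) and -0.18 in Col-0 (adjusted p = 0.46) did not pass.

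WAK3, a close homologue of WAK1 whose function is less well described, was clearly detected at 12 h in the main matrix. In DMSO leaves at 12 h it had 4.01, 3.40 and 1.43 CPM in icals3m, 4.90, 3.30 and 4.71 CPM in PD-plug and 13.4, 8.60 and 12.7 CPM in Col-0. At 24 h it had 0.0876, 0.696 and 0 CPM in icals3m, 0.430, 0.325 and 0.930 CPM in PD-plug and 0.170, 0.342 and 0.297 CPM in Col-0. The Col-0 libraries at 12 h were higher than those of either line in the main matrix, a difference that was not tested at this time alone. The share of all genes with such a gap was not taken. For the mean of 12, 24 and 72 h, given below, WAK3 did not pass in either line. In the other matrix Col-0 replicate 2 had 6.59 CPM, below the 9.21 CPM of PD-plug replicate 1. No group at 24 h overlapped its own 12 h group. WAK3 fell at 24 h against 12 h, with log2 changes of -3.47 in icals3m (SE 1.08, adjusted p = 0.0054), -2.92 in PD-plug (SE 1.01, adjusted p = 0.012) and -5.41 in Col-0 (SE 1.14, adjusted p = 5.0e-05). The icals3m call was lost in the other matrix, and the PD-plug call was lost without 24 h replicate 2. WAK4 passed in none of these comparisons.

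All 3 calls at 24 h against 12 h stand beside a share of all tested genes that was called there, 55.6% in icals3m, 59.5% in PD-plug and 62.7% in Col-0, so that most genes differed between these times and 3 of 4 members is not far from that background. At 72 h against 24 h, 2 of 4 members were lower in icals3m, beside 36.8% of all genes called, 1 of 4 in PD-plug, beside 39.4%, and 1 of 4 in Col-0, beside 39.3%. Between genotypes, the mean of the 12, 24 and 72 h DMSO leaves gave 0 of 4 calls in icals3m against Col-0, beside 12.9% of all genes, and 0 of 4 in PD-plug against Col-0, beside 2.33% (edgeR). In both comparisons, 0 members passed at an unadjusted p under 0.05, and DESeq2 also called 0. The differences were -0.15 for WAK1, -0.16 for WAK2, -0.54 for WAK3 and -0.54 for WAK4 in icals3m minus Col-0, and between -0.08 and 0.07 for all 4 in PD-plug minus Col-0.

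**Figure D2:**
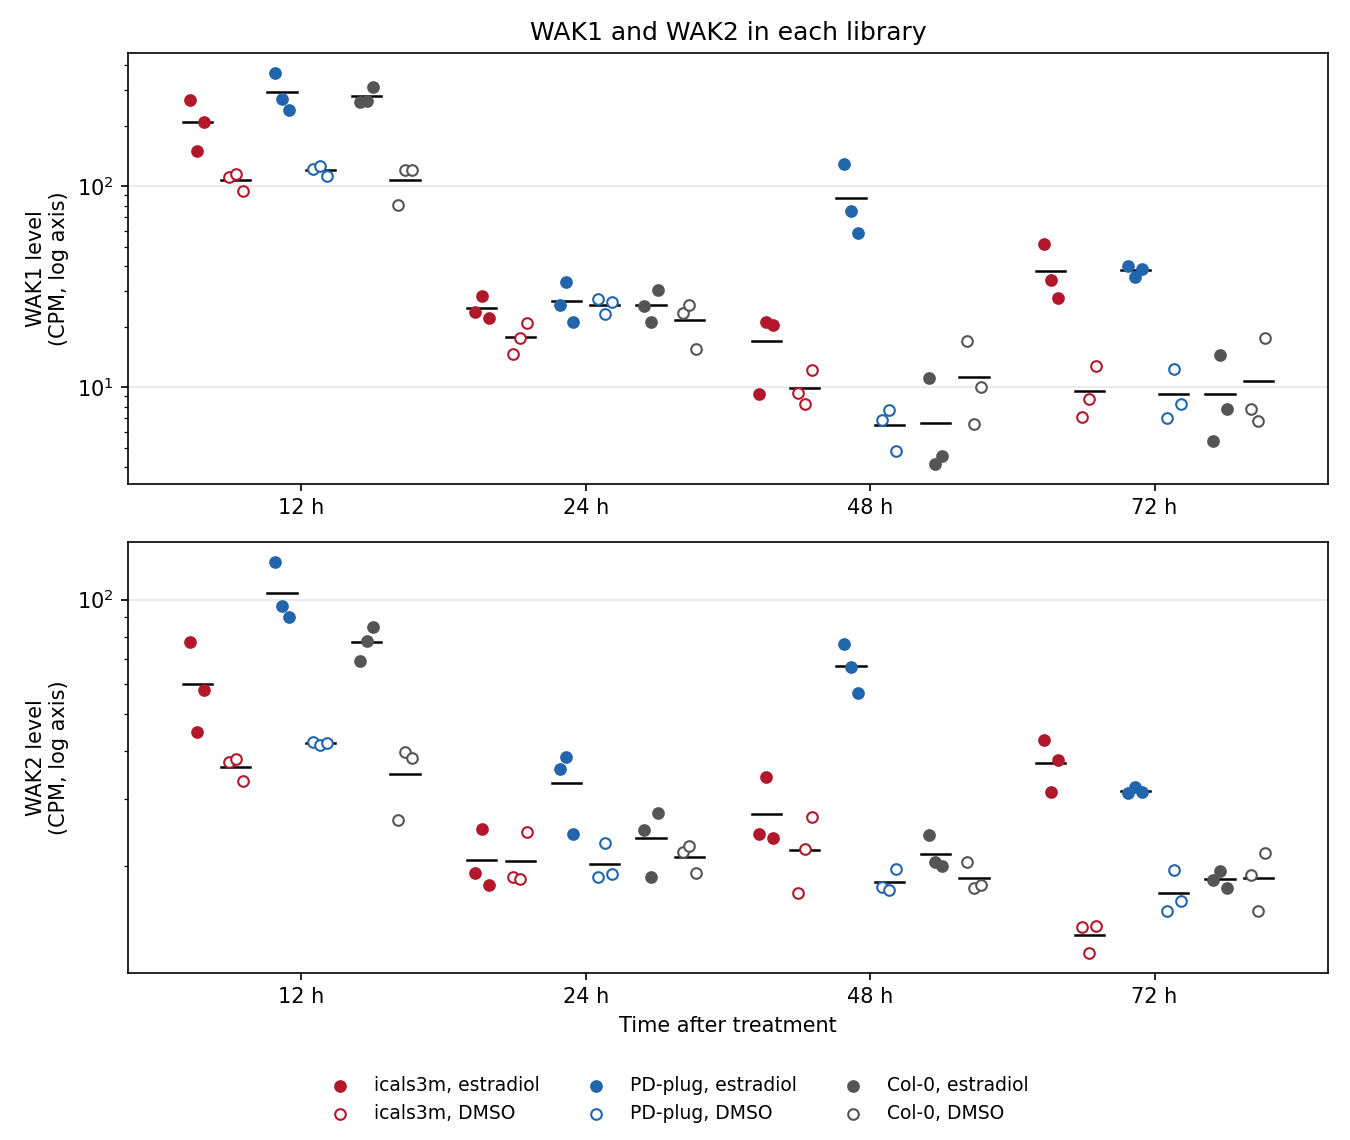
WAK1 (top) and WAK2 (bottom) in CPM on log axes for every library at 12, 24, 48 and 72 h after treatment, with filled points for estradiol, open points for DMSO and a short line at the mean of 3 libraries. PD-plug estradiol leaves at 48 h (WAK1, 58.2 to 129 CPM) and estradiol leaves of both lines at 72 h stand above their DMSO leaves.

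At 12 h, WAK1 and WAK2 were higher in estradiol leaves than in DMSO leaves of all 3 genotypes, Col-0 included. WAK1 had 269, 150.3 and 209.9 CPM in icals3m estradiol leaves, 368, 272 and 241 CPM in PD-plug estradiol leaves and 263, 267 and 312 CPM in Col-0 estradiol leaves, against the DMSO values given above. Every estradiol library was above every DMSO library of its genotype. Of all tested genes, 17.0% lay above in this way in icals3m, 20.2% in PD-plug and 27.5% in Col-0. The log2 fold changes of WAK1 were 0.97 in icals3m (SE 0.34, adjusted p = 0.037), 1.29 in PD-plug (SE 0.34, adjusted p = 0.0030) and 1.39 in Col-0 (SE 0.34, adjusted p = 0.00082). The icals3m call was lost in the other matrix, when only its 6 libraries were fitted, and without any single one of them except estradiol replicate 2. WAK2 had 77.4, 45.0 and 58.0 CPM in icals3m estradiol leaves, 126, 96.2 and 90.0 CPM in PD-plug estradiol leaves and 69.1, 78.0 and 84.5 CPM in Col-0 estradiol leaves. Here too no estradiol group overlapped its DMSO group, beside the same shares of all genes. The log2 fold changes of WAK2 were 0.73 in icals3m (adjusted p = 0.0024), 1.31 in PD-plug (adjusted p = 1.1e-07) and 1.15 in Col-0 (adjusted p = 6.8e-07), each with an SE of 0.18, and the icals3m call was lost without estradiol replicate 1 and when only its 6 libraries were fitted.

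WAK3 went the other way at 12 h in Col-0. It had 2.49, 1.98 and 2.34 CPM in Col-0 estradiol leaves, against 13.4, 8.60 and 12.7 CPM in Col-0 DMSO leaves, so the groups did not overlap. Of all tested genes, 21.5% lay below in this way. The change was -2.35 on the log2 scale (SE 0.95, adjusted p = 0.046). This call was lost in the other matrix, with DESeq2, without the filter on low counts and on leaving out any of the 6 libraries. In the lines WAK3 had 2.60, 1.24 and 4.09 CPM in icals3m estradiol leaves and 3.65, 4.26 and 4.84 CPM in PD-plug estradiol leaves, which overlap their DMSO leaves. The fold changes were -0.15 in icals3m (SE 0.91, adjusted p = 0.96) and -0.02 in PD-plug (SE 0.91, adjusted p = 1.00). The matrices disagree most for WAK3: icals3m 12 h estradiol replicate 3 had 254 counts in the main matrix and 0 in the other, and 5 of the 50 libraries with at least 10 counts had under 0.5 times as many in the other matrix. All 5 were harvested at 12 h, the time at which WAK3 was highest, so its 12 h levels depend on the matrix. For WAK1 the counts in the other matrix were 0.822 to 1.27 times those in the main matrix, and for WAK2 0.796 to 1.28 times. These are ratios of counts, and in CPM the other matrix, whose library totals were lower, gave higher levels. In Col-0 estradiol leaves at 12 h WAK1 averaged 281 CPM in the main matrix and 488 CPM in the other, and WAK2 77.2 and 134 CPM.

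The counts at 12 h were 2 of 4 members higher in icals3m, beside 17.2% of all genes called, 2 of 4 higher in PD-plug, beside 27.1%, and 2 of 4 higher and 1 lower in Col-0, beside 38.6%. When the Col-0 effect was subtracted, 0 of 4 members passed in icals3m, beside 3.16% of all genes, and 0 of 4 in PD-plug, beside 8.30% (edgeR; 0 at an unadjusted p under 0.05 and 0 by DESeq2 in both). The differences for WAK1 were -0.42 in icals3m (SE 0.47) and -0.10 in PD-plug (SE 0.47), and for WAK2 -0.42 in icals3m (SE 0.25) and 0.16 in PD-plug (SE 0.25). Those for WAK3 were 2.195 in icals3m (SE 1.303, adjusted p = 0.42) and 2.33 in PD-plug (SE 1.299, adjusted p = 0.34). The WAK3 difference in PD-plug passed when counts were divided by 4 and when only the 12 libraries compared were fitted.

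At 24 h no member passed in any genotype. WAK1 had 23.6, 28.5 and 22.1 CPM in icals3m estradiol leaves, 25.7, 33.4 and 21.1 CPM in PD-plug estradiol leaves and 25.4, 21.2 and 30.3 CPM in Col-0 estradiol leaves, close to the DMSO values. The icals3m estradiol libraries were all above the icals3m DMSO libraries, as for 12.8% of all tested genes. The fold change of 0.48 (SE 0.35) had an adjusted p of 0.47 and passed only when those 6 libraries were fitted alone. WAK2 had 35.9, 38.6 and 24.3 CPM in PD-plug estradiol leaves, against 18.6, 22.9 and 19.1 CPM in PD-plug DMSO leaves. These groups did not overlap, and 7.10% of all tested genes lay above in this way in PD-plug. The fold change was 0.70 (SE 0.18, adjusted p = 0.0545), which DESeq2 and leaving out estradiol replicate 3 put past the threshold. WAK2 had 19.2, 25.0 and 17.9 CPM in icals3m estradiol leaves and 24.9, 18.7 and 27.5 CPM in Col-0 estradiol leaves, both overlapping DMSO. WAK3 had 0.1102 to 1.16 CPM in icals3m, 0.416 to 1.205 CPM in PD-plug and 0.1204 to 0.634 CPM in Col-0 estradiol leaves, and WAK4 at most 0.176 CPM in any of them. The shares of all genes called were 6.48% in icals3m, 0.490% in PD-plug and 0.984% in Col-0. Against the Col-0 effect 0 of 4 members passed in icals3m, beside 0.259% of all genes, and 0 of 4 in PD-plug, beside 0.0330% (edgeR; DESeq2 also called 0 in both, and WAK2 in PD-plug was the only member at an unadjusted p under 0.05, with a difference of 0.54).

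At 48 h the values are those on which the family was selected. WAK1, WAK2 and WAK3, 3 of the 4 measurable members, were each higher in all 3 PD-plug estradiol libraries than in all 3 PD-plug DMSO libraries, in a contrast that served the selection. Of all tested genes, 14.2% lay above in this way and 16.1% below, and 13.3% were called by the test. For WAK3 the lack of overlap was a condition of the ranking that put it first, so it carries no weight for that gene. WAK1 had 129, 75.3 and 58.2 CPM in PD-plug estradiol leaves, against 6.89, 7.74 and 4.82 CPM in PD-plug DMSO leaves, a ratio of means of 13.5. In Col-0 it had 11.1, 4.13 and 4.57 CPM in estradiol leaves, against 17.0, 6.59 and 10.0 CPM in DMSO leaves, which overlap. WAK2 had 76.7, 66.6 and 57.0 CPM in PD-plug estradiol leaves, against 17.6, 17.3 and 19.7 CPM in PD-plug DMSO leaves, a ratio of means of 3.67. In Col-0 WAK2 had 24.0, 20.4 and 19.9 CPM in estradiol leaves, against 20.5, 17.5 and 17.8 CPM in DMSO leaves, so its Col-0 groups overlap as well. The PD-plug effects on the log2 scale were 3.75 for WAK1 and 1.88 for WAK2, and they were 3.36 for WAK1 and 1.76 for WAK2 without estradiol replicate 1, the library that stood apart between the matrices. Relative to Col-0 they were 4.49 for WAK1 (4.06 to 5.11 on leaving out 1 library at a time) and 1.67 for WAK2 (1.56 to 1.77).

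WAK3 itself rested on few counts at 48 h. In PD-plug estradiol leaves it had 45, 46 and 24 counts, which are 1.41, 0.979 and 0.480 CPM, against 0, 8 and 8 counts in PD-plug DMSO leaves, which are 0, 0.168 and 0.189 CPM. In Col-0 estradiol leaves it had 0, 0 and 7 counts, against 12, 0 and 240 counts in Col-0 DMSO leaves. The 240 counts of Col-0 48 h DMSO replicate 3, or 6.50 CPM, exceed every PD-plug library of that time, and the other matrix gives 226 counts there. The PD-plug effect was 2.96 on the log2 scale, and the Col-0 effect was -5.24. Their difference, 8.20, was the highest among the genes that met the conditions of the ranking, in a contrast where 5.56% of all genes were called. Among those genes PCR1 was next at 7.66, and AT5G03350 and CRK6 were both at 5.72. Without Col-0 48 h DMSO replicate 3 the WAK3 difference was 4.37. Without Col-0 48 h estradiol replicate 3 it was 12.69, and without PD-plug 48 h estradiol replicate 1 it was 7.83. The Col-0 effect itself ran from -9.73 to -1.41 on leaving out 1 library at a time. Values of this kind are fitted from groups at or near 0 and are no bound on the true fold.

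In icals3m at 48 h, which the selection did not use and which was therefore tested within the line, WAK1 had 9.20, 21.2 and 20.4 CPM in estradiol leaves, against 9.31, 8.29 and 12.1 CPM in DMSO leaves. Replicate 1 of the estradiol leaves lay among the DMSO leaves, and the fold change of 0.78 (SE 0.36, adjusted p = 0.13) did not pass, though it did without that library. WAK2 had 24.2, 34.2 and 23.7 CPM in icals3m estradiol leaves, against 17.0, 22.1 and 26.9 CPM in DMSO leaves, with a fold change of 0.31 (SE 0.18, adjusted p = 0.24). WAK3 had 0, 0.238 and 0.144 CPM in icals3m estradiol leaves, against 0.503, 0.158 and 1.29 CPM in DMSO leaves, a fitted change of -2.36 (SE 1.22, adjusted p = 0.18). In all, 0 of 4 members passed, beside 18.3% of all genes (edgeR; 1 member, WAK1, at an unadjusted p under 0.05, and 0 by DESeq2). The icals3m effect minus the Col-0 effect, given without a test because it shares the Col-0 libraries of the selection, was 1.52 for WAK1 (1.09 to 2.14 on leaving out 1 library at a time), 0.11 for WAK2 (-0.08 to 0.28) and 2.88 for WAK3 (-0.94 to 7.37), so of these 3 the WAK1 value alone kept its sign. The sign of WAK2 turned without icals3m estradiol replicate 2 or DMSO replicate 1, and that of WAK3 without Col-0 DMSO replicate 3.

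**Figure D3:**
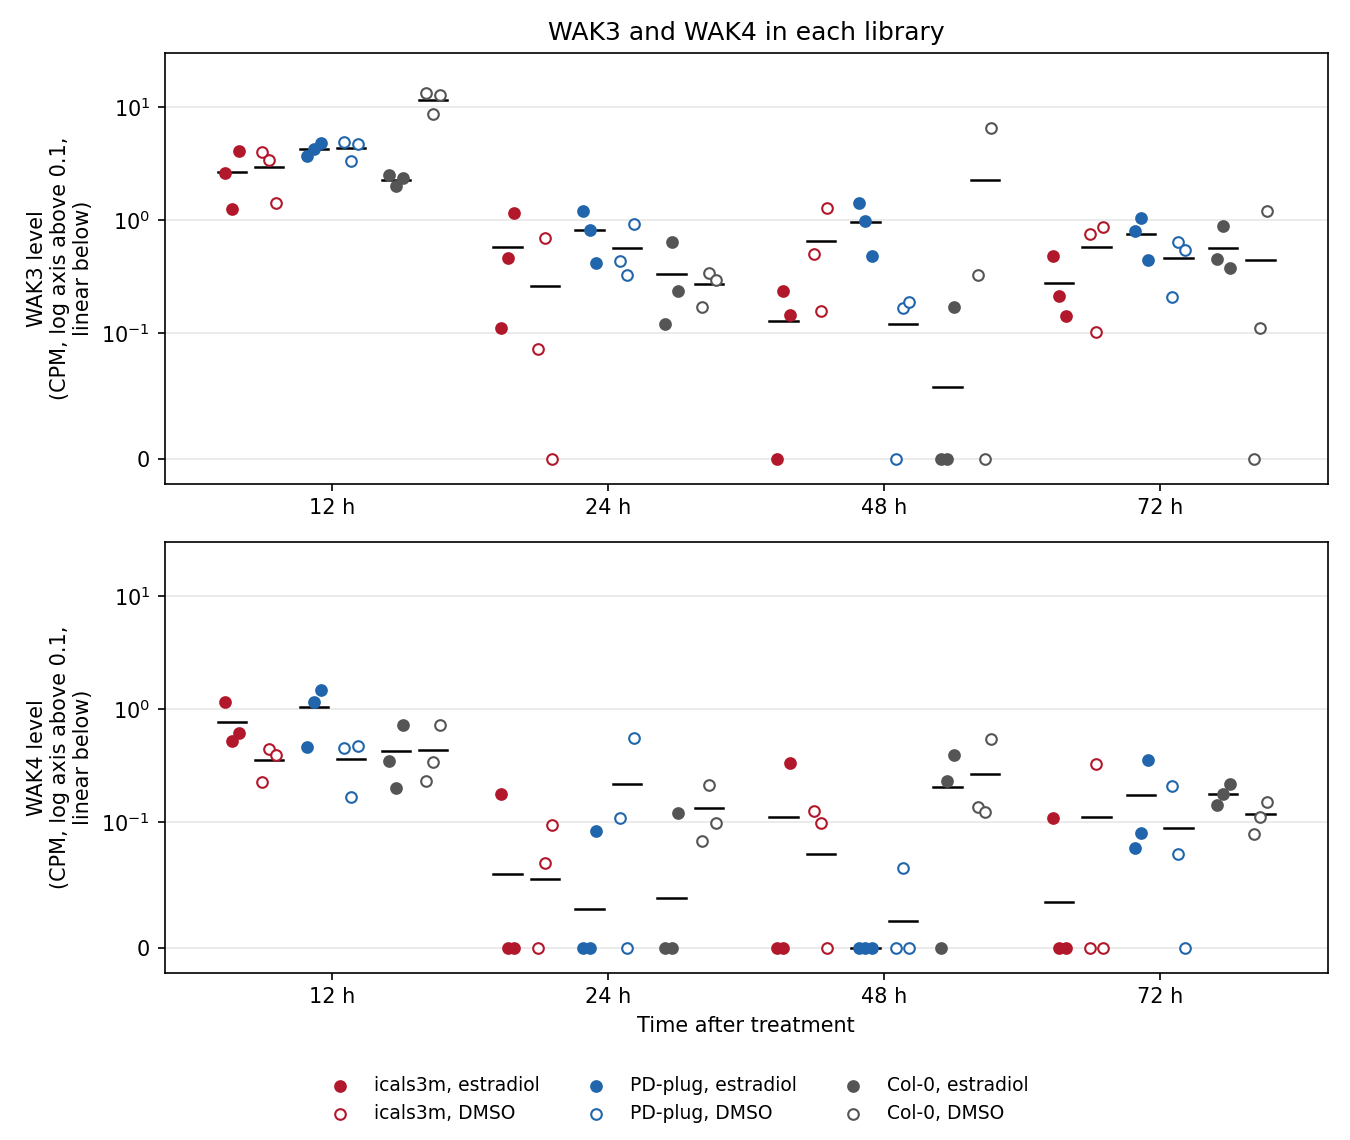
WAK3 (top) and WAK4 (bottom) in CPM for every library at 12, 24, 48 and 72 h, filled for estradiol and open for DMSO, with a short line at the mean of 3 libraries, on a symmetric log axis that is linear below 0.1. WAK3 is above 1 CPM in all 18 libraries at 12 h in the main matrix, though icals3m estradiol replicate 3 is at 0 in the other. At 48 h a single Col-0 DMSO library at 6.50 CPM lies above all others of that time.

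At 72 h, WAK1 and WAK2 were higher with estradiol in both lines, while neither passed in Col-0. WAK1 had 51.7, 34.03 and 27.8 CPM in icals3m estradiol leaves, against 7.07, 8.76 and 12.8 CPM in icals3m DMSO leaves. It had 40.0, 35.5 and 38.9 CPM in PD-plug estradiol leaves, against 7.003, 12.4 and 8.25 CPM in PD-plug DMSO leaves. In Col-0 it had 5.37, 14.4 and 7.82 CPM in estradiol leaves, against 7.78, 6.77 and 17.5 CPM in DMSO leaves. All 6 estradiol libraries of the lines were above every DMSO library and every Col-0 library, whereas the Col-0 groups overlapped. Within the lines, the estradiol group lay above the DMSO group without overlap for 18.2% of all tested genes in icals3m and 10.0% in PD-plug. The fold changes on the log2 scale were 1.99 in icals3m (SE 0.36, adjusted p = 3.3e-05), 2.04 in PD-plug (SE 0.36, adjusted p = 0.00047) and -0.20 in Col-0 (SE 0.37, adjusted p = 1). WAK2 had 42.8, 31.2 and 38.0 CPM in icals3m estradiol leaves, against 13.8, 11.8 and 13.9 CPM in icals3m DMSO leaves. It had 31.0, 32.2 and 31.3 CPM in PD-plug estradiol leaves, against 15.3, 19.5 and 16.2 CPM in PD-plug DMSO leaves, and in Col-0 it had 18.4, 19.3 and 17.5 CPM in estradiol leaves, against 18.9, 15.3 and 21.7 CPM in DMSO leaves. Again the lines' groups were apart and the Col-0 groups overlapped. The fold changes of WAK2 were 1.502 in icals3m (SE 0.18, adjusted p = 1.1e-08), 0.89 in PD-plug (SE 0.18, adjusted p = 0.0023) and -0.02 in Col-0 (SE 0.18, adjusted p = 1).

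The counts at 72 h were 2 of 4 members higher in icals3m, beside 21.5% of all genes called, 2 of 4 higher in PD-plug, beside 2.65%, and 0 of 4 in Col-0, beside 0.0141% (edgeR; in Col-0 0 members at an unadjusted p under 0.05 and 0 by DESeq2). Against the Col-0 effect, 2 of 4 members passed in icals3m, beside 11.3% of all genes: WAK1 with a difference of 2.19 (SE 0.51, adjusted p = 0.0025) and WAK2 with 1.52 (SE 0.26, adjusted p = 3.7e-05). The WAK1 call was lost when only the 12 libraries compared were fitted and held on leaving out any single library, with an adjusted p of at most 0.038. In PD-plug the differences from Col-0 were 2.24 for WAK1 (SE 0.51, adjusted p = 0.058) and 0.90 for WAK2 (SE 0.26, adjusted p = 0.18), so 0 of 4 passed, beside 0.0942% of all genes called. WAK1 and WAK2 had an unadjusted p under 0.05, and DESeq2 called 1, WAK1. WAK1 in PD-plug also passed without Col-0 estradiol replicate 2, Col-0 DMSO replicate 1 or 2, or PD-plug DMSO replicate 2, and WAK2 in PD-plug passed when only the 12 libraries compared were fitted (adjusted p = 0.025). WAK3 had 0.476, 0.215 and 0.141 CPM in icals3m estradiol leaves and 0.792, 1.04 and 0.441 CPM in PD-plug estradiol leaves, both overlapping DMSO, and did not pass in either.

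The lines were also compared with each other, by subtracting the PD-plug effect from that in icals3m. At 12 h 0 of 4 members passed, beside 1.19% of all genes, at 24 h 0 of 4, beside 0.358%, and at 72 h 0 of 4, beside 5.35% (edgeR; DESeq2 also called 0). At each of these times WAK2 was the only member at an unadjusted p under 0.05. At 12 h its difference was -0.58 (SE 0.25, adjusted p = 0.35), at 24 h it was -0.69 (SE 0.26, adjusted p = 0.24), and at 72 h it was 0.61 (SE 0.26, adjusted p = 0.17). The WAK1 differences were -0.31 at 12 h (SE 0.47), 0.43 at 24 h (SE 0.49) and -0.05 at 72 h (SE 0.50). At 48 h, without a test, the differences were -2.97 for WAK1 and -1.56 for WAK2, the PD-plug response being the higher. Within PD-plug the WAK1 fold change was thus 3.75 at 48 h and 2.04 at 72 h, and within icals3m it was 0.78 at 48 h and 1.99 at 72 h.

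**Figure D4:**
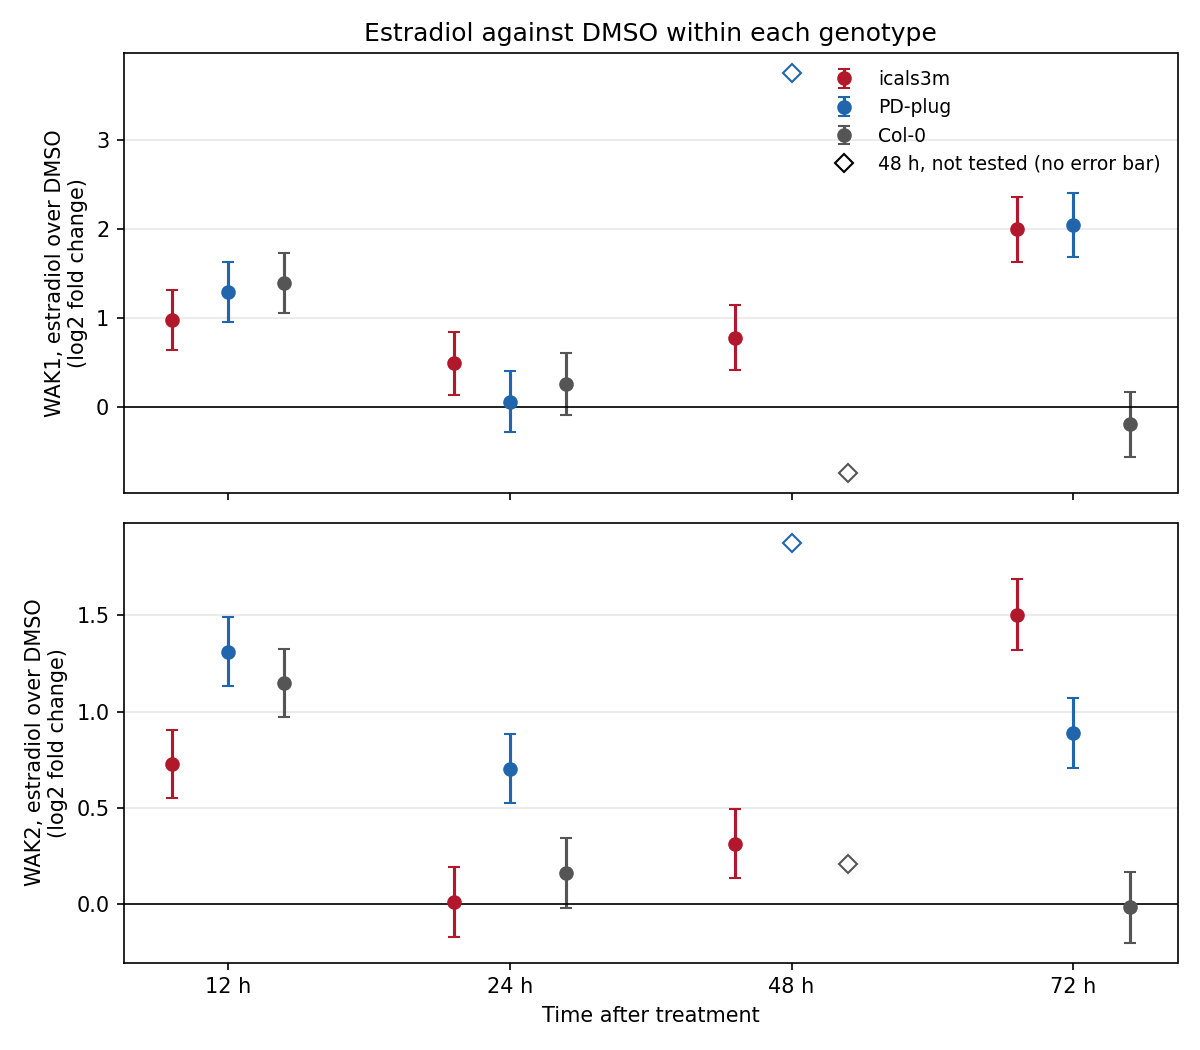
Log2 fold change of WAK1 (top) and WAK2 (bottom), estradiol over DMSO, in icals3m, PD-plug and Col-0 at each time, with bars of 1 standard error. Open diamonds are the 48 h values that entered the choice of the family and were not tested. At 12 h all 3 genotypes lie above 0, and at 72 h both lines do while Col-0 is at -0.20 for WAK1 and -0.02 for WAK2.

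WAK4, whose suppression is known to impair root growth, was a low-count member throughout. At 12 h it had 1.15, 0.523 and 0.613 CPM in icals3m estradiol leaves, against 0.225, 0.445 and 0.389 CPM in icals3m DMSO leaves. It had 0.457, 1.16 and 1.48 CPM in PD-plug estradiol leaves, against 0.453, 0.166 and 0.468 CPM in PD-plug DMSO leaves, and 0.347, 0.2002 and 0.717 CPM in Col-0 estradiol leaves, against 0.229, 0.340 and 0.719 CPM in Col-0 DMSO leaves. The icals3m groups did not overlap, the PD-plug and Col-0 groups did, and the fold changes of 1.10 in icals3m (SE 1.27, adjusted p = 0.64), 1.502 in PD-plug (SE 1.28, adjusted p = 0.43) and -0.03 in Col-0 (SE 1.26, adjusted p = 1) did not pass. Of all tested genes, 17.0% lay above without overlap in icals3m at 12 h. From 24 h on WAK4 was at most 0.389 CPM in estradiol leaves and at most 0.549 CPM in DMSO leaves. At 48 h all 3 PD-plug estradiol libraries were at 0 counts and PD-plug DMSO leaves had 0, 3 and 0 counts, which is at or under the floor in both groups, so no fold is given. WAK4 passed in none of the 27 contrasts. In icals3m DMSO leaves at 24 h against 12 h it did pass when counts were divided by 4 and when only those 6 libraries were fitted.

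Per kb of transcript, the order of the group means at 12 h was WAK1, WAK2, WAK3, WAK4 and WAK5, and WAK1 was above WAK2 without overlap in all 6 groups, with ratios of means from 3.65 in PD-plug estradiol leaves to 4.71 in Col-0 estradiol leaves. At 24 h WAK1 was above WAK2 without overlap in 2 of 6 groups, and the ranges overlapped in the other 4. At 48 h the order had turned in 3 of 6 groups. WAK1 had 1.74 to 2.80 CPM per kb and WAK2 had 4.83 to 5.48 CPM per kb in PD-plug DMSO leaves, and likewise 1.49 to 4.01 CPM per kb for WAK1 and 5.56 to 6.70 CPM per kb for WAK2 in Col-0 estradiol leaves. In PD-plug estradiol leaves at 48 h WAK1 had 21.0 to 46.6 CPM per kb and WAK2 had 15.9 to 21.4 CPM per kb, overlapping ranges with WAK1 again the higher on average. At 72 h WAK1 was above WAK2 without overlap in PD-plug estradiol leaves only, and the ranges overlapped in the other 5 groups. WAK3 averaged 0.938 to 4.77 CPM per kb at 12 h and WAK4 averaged 0.118 to 0.345 CPM per kb. The order depends on the length used, 2770 transcript bases for WAK1 and 3585 for WAK2, against coding lengths of 2208 and 2199. In plain CPM, Col-0 DMSO leaves at 48 h had at most 17.0 for WAK1 and at least 17.5 for WAK2, without overlap. Plain CPM overlapped in icals3m estradiol leaves at 24 h, with 22.1 to 28.5 for WAK1 and 17.9 to 25.0 for WAK2.

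After subtraction of the mean of each time, WAK1 and WAK2 followed each other across the 72 libraries with a Pearson r of 0.872, while the r of WAK1 with WAK3 was 0.316 and those of the other pairs of tested members ran from -0.153 to 0.156. These values describe libraries that share groups and are not independent points, and the part of the stretches shared between the transcripts in them was not tested. WAK3 was at 0 in 7 libraries and WAK4 in 22, so every r that involves them rests on low counts. Among 17298 other genes, those most like WAK1 were CNGC11 (r = 0.898) and CNGC3 (0.877), which encode cyclic nucleotide-gated channels, AT1G35710 (0.876), CML10 (0.876), which encodes a calmodulin-like protein, and ANK (0.866). The genes most like WAK3 were AT1G26420 (r = 0.593), AT4G18250 (0.589), AT5G48657 (0.554), CHI (0.553) and FLOT1 (0.538), a weaker likeness over the same 72 libraries.

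The other WAK-like (WAKL) genes, relatives outside the cluster, were counted against the Col-0 effect. Of 20 listed, 16 were tested, and none of the counts that follow is read as a result about the list. Here and for the lists below, the 48 h comparisons with Col-0 use Col-0 libraries that entered the selection of the family. The PD-plug comparison at 48 h is the selecting contrast itself, so the 48 h calls are descriptions. At 72 h against the Col-0 effect in icals3m, 0 were higher and 1 was lower, WAKL7 (-0.997, SE 0.28, adjusted p = 0.011), beside 11.3% of all genes called, and the median log2 difference of the 16 was 0.12. In PD-plug at 72 h 0 passed, beside 0.0942%, and the median was 0.07. At 48 h in icals3m, 2 were higher, WAKL9 (0.70, SE 0.16, adjusted p = 0.0015) and WAKL14 (0.63, SE 0.15, adjusted p = 0.0026), and WAKL7 was lower (-0.84, SE 0.28, adjusted p = 0.035), beside 13.4% of all genes called. WAKL9 averaged 20.9 ± 2.3 CPM in icals3m estradiol leaves and 13.9 ± 0.9 CPM in icals3m DMSO leaves at 48 h (SD, n = 3 each), against 20.9 ± 0.4 CPM in Col-0 estradiol leaves and 22.5 ± 1.7 CPM in Col-0 DMSO leaves. At 48 h in PD-plug 0 passed, beside 5.56% of all genes called (edgeR; 1 without Col-0 48 h DMSO replicate 3), while 3 were higher and 0 lower within the line, beside 13.3%. At 12 h in icals3m, 0 were higher and 1 was lower, beside 3.16% of all genes: WAKL8 (-0.49, adjusted p = 0.040), a call lost on leaving out any of 10 of the 12 libraries, with the replicate block and when only the groups compared were fitted. At 12 h in PD-plug, 1 was higher and 2 were lower, beside 8.30%: WAKL22 (0.59, adjusted p = 0.018), WAKL8 (-0.61, adjusted p = 0.0027) and WAKL9 (-0.54, adjusted p = 0.016). The WAKL22 and WAKL9 calls were lost without Col-0 DMSO replicate 1 or PD-plug estradiol replicate 3. The WAKL7 call at 48 h was lost without Col-0 estradiol replicate 1, Col-0 DMSO replicate 3, icals3m estradiol replicate 3 or icals3m DMSO replicate 2 or 3. At 24 h 0 passed in either line, beside 0.259% in icals3m and 0.0330% in PD-plug. In the other matrix 7 of these 8 WAKL calls were lost, WAKL9 at 48 h being the exception. There WAKL7 in icals3m turned to 0.16 at 48 h and was -0.00026 at 72 h. In that matrix the icals3m calls of WAK1 and WAK2 at 72 h held.

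Genes that act with the WAKs were counted the same way, against the Col-0 effect, where the shares of all genes called were 0.259% in icals3m at 24 h, 13.4% in icals3m at 48 h, 11.3% in icals3m at 72 h and 5.56% in PD-plug at 48 h. Of 12 ligand, partner and signalling genes, 3 were higher and 1 lower in icals3m at 48 h, 3 higher and 0 lower in icals3m at 72 h and 3 higher and 0 lower in PD-plug at 48 h, where leaving out PD-plug estradiol replicate 1 or Col-0 DMSO replicate 3 left 2 and the other matrix gave 1. The examples from icals3m at 48 h are RBOHD, an oxidase that produces reactive oxygen at the cell surface (0.96, adjusted p = 2.3e-05), PAD4, a regulator of salicylic acid defence (0.61, adjusted p = 0.021), and GRP3, which encodes a glycine-rich ligand of WAK1 (-0.34, adjusted p = 0.041). The GRP3 call was lost in 4 of 7 alternatives and on leaving out any of 8 of the 12 libraries, and the PAD4 call was lost in the other matrix and on leaving out any of 4 libraries (Col-0 estradiol replicate 3, Col-0 DMSO replicate 2, icals3m estradiol replicate 2 or icals3m DMSO replicate 3). Of 8 other wall and growth receptors, 1 was higher in PD-plug at 48 h, a count of 0 in the other matrix, and 1 was higher in icals3m at 72 h, LLG1, a chaperone of the FERONIA receptor (0.77, adjusted p = 9.3e-05), whose call was lost in the other matrix. Of 14 tested pectin genes, 0 were higher and 1 lower in icals3m at 24 h, 2 were higher and 3 lower in icals3m at 48 h, 0 higher and 4 lower in icals3m at 72 h, and 1 higher and 1 lower in PD-plug at 48 h, the higher call being lost without PD-plug estradiol replicate 1 or Col-0 DMSO replicate 3 and in the other matrix. PGIP1, an inhibitor of fungal polygalacturonases (1.67, adjusted p = 0.00087), and QUA2, a pectin methyltransferase (0.43, adjusted p = 0.0049), were higher in icals3m at 48 h, and GAE6, which makes the pectin precursor UDP-galacturonate (-0.86, adjusted p = 3.3e-07), and PMR6, a pectate lyase-like protein (-1.02, adjusted p = 0.00019), were lower. Of these 4 calls, that of QUA2 was lost in the other matrix. Of 7 marker genes of the oligogalacturonide response, 4 were higher in icals3m at 48 h and 1 in PD-plug at 48 h, and 0 were lower. Within the lines, estradiol against DMSO, 1 was higher and 0 lower in icals3m at 48 h, beside 18.3% of all genes, and 0 were higher and 1 lower in PD-plug at 48 h, beside 13.3%. At 12 h within the lines, 0 were higher and 5 lower in icals3m, beside 17.2%. In PD-plug at 12 h 0 were higher and 4 lower, beside 27.1%. Within icals3m, 0 were higher and 1 lower at 24 h, beside 6.48%, and 2 higher and 0 lower at 72 h, beside 21.5%. Against the Col-0 effect 0 passed at 12 h in either line. The median log2 difference of the 7 from the Col-0 effect was 1.95 in icals3m and 1.295 in PD-plug at 48 h, against -0.01 over all genes in both. Within the lines, estradiol against DMSO, the median log2 fold change of the 7 at 48 h was only 0.61 in icals3m and 0.045 in PD-plug. The differences from Col-0 are thus not a rise of that size within the lines. WRKY33, a defence transcription factor, averaged 47.4 ± 3.0 CPM in icals3m estradiol leaves and 23.2 ± 4.5 CPM in icals3m DMSO leaves, against 17.0 ± 1.6 CPM in Col-0 estradiol leaves and 37.4 ± 7.0 CPM in Col-0 DMSO leaves (SD, n = 3 each), a difference of 2.17 (adjusted p = 7.5e-05). PAD3, an enzyme of camalexin synthesis, differed by 5.38 (adjusted p = 0.028), a call lost with the replicate block, with counts divided by 4 and when only the groups compared were fitted. It was also lost without any single Col-0 estradiol replicate, Col-0 DMSO replicate 3 or icals3m estradiol replicate 3, and the difference then ran down to 3.51. PAD3 averaged 0.840 ± 0.877 CPM in icals3m estradiol leaves and 1.64 ± 0.40 CPM in icals3m DMSO leaves, and 0.0618 ± 0.0537 CPM in Col-0 estradiol leaves and 5.41 ± 6.88 CPM in Col-0 DMSO leaves (SD, n = 3 each).

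Among 11 other genes with identifiers next to the cluster, 6 were tested, and against the Col-0 effect 1 was higher and 1 lower in icals3m at 48 h, beside 13.4% of all genes called, and 0 passed in the other 7 comparisons. The higher was EXT3, an extensin of the cell wall (2.12, adjusted p = 0.025), which averaged 6.22 CPM in icals3m estradiol leaves and 8.24 CPM in icals3m DMSO leaves, against 2.53 CPM in Col-0 estradiol leaves and 14.7 CPM in Col-0 DMSO leaves. This call was lost on leaving out any of 8 of the 12 libraries and when only the groups compared were fitted (adjusted p = 0.24). The lower was AT1G21220, which was at 0 in all icals3m estradiol and all Col-0 DMSO libraries, so no fold is given.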

How the data were processed

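The authors deposited 2 matrices of expected counts per gene (estimated by their software), whole numbers in every cell, for 72 leaf libraries in 24 groups of 3. Per the submitters' processing notes, FastQC 0.11.8, Trim Galore 0.5.0, cutadapt 1.7, HISAT2 2.1.0, STAR 2.5, SAMtools 1.4.1, StringTie 1.3.3 and build TAIR10 were used; the authors named the matrix used as the alternative for STAR, and the tool that made the main matrix is not given in the sources used here. The value 4 fills 40727 cells of the main matrix, against 8585 for 3 and 10399 for 5, so low counts are not plain read numbers, and intervals or floors from counts are approximate. The main matrix was analysed in R 4.3.3 with edgeR 4.0.16 (filterByExpr, minimum count 10 and minimum total count 15, TMM, robust quasi-likelihood fit of 24 group means) and limma 3.58.1. Of 33602 genes, 21241 were tested, and p-values were adjusted by Benjamini-Hochberg over all of them at a threshold of 0.05. Fold changes are fitted log2 values; the prior count of 2 was used only for the correlations. Alternatives were the other matrix, DESeq2 1.42.0, RLE size factors, no filter, counts divided by 4, a replicate block, only the groups compared, and each library left out in turn. No replicate pair was identical (72 pairs, Pearson r 0.968 to 0.981).

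The members and lists were chosen with earlier results of these data known. All members were named. WAKL genes were named where they passed against the Col-0 effect, and of each other list at most the 2 highest and 2 lowest in 1 comparison; genes whose compared group was all at 0 were left out of this naming after values were seen. Genes of like pattern were the 5 with the highest Pearson r to WAK1 and to WAK3, among tested genes with a mean of at least 1 CPM. Sequences and gene models come from RefSeq, TAIR10.1, and no coordinate of the deposited files was used. Scripts were tested on simulated data.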

Additional observations from a re-analysis of the deposited data

Results flagged for a closer look

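The results here differ between a line and Col-0 by a test of the difference itself, edgeR's quasi-likelihood test with adjustment over all genes. Those at 48 h share Col-0 libraries with the selection of the family and are descriptions. WAK1 and WAK2 responded more to estradiol in icals3m than in Col-0 at 72 h, with log2 differences of 2.19 for WAK1 (adjusted p = 0.0025) and 1.52 for WAK2 (adjusted p = 3.7e-05). Among the WAKL genes the difference from Col-0 at 12 h was -0.49 for WAKL8 in icals3m, -0.61 for WAKL8 in PD-plug, -0.54 for WAKL9 in PD-plug and 0.59 for WAKL22 in PD-plug. In icals3m at 48 h it was -0.84 for WAKL7, 0.70 for WAKL9 and 0.63 for WAKL14, and at 72 h it was -0.997 for WAKL7. All of these WAKL calls except that of WAKL9 at 48 h were lost in the other matrix, where WAKL7 at 72 h was -0.00026.

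Of the other named genes, LLG1 differed by 0.77 in icals3m at 72 h. In icals3m at 48 h the differences were 0.96 for RBOHD, 0.61 for PAD4, -0.34 for GRP3, 1.67 for PGIP1, 0.43 for QUA2, -0.86 for GAE6 and -1.02 for PMR6. For PAD3, WRKY33 and EXT3 the 48 h differences were 5.38, 2.17 and 2.12. All 3 were lower in Col-0 estradiol leaves than in Col-0 DMSO leaves on average. The calls of LLG1, PAD4, GRP3, QUA2, PAD3 and EXT3 were lost in some alternative settings or on leaving out some libraries, as given above.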

How the results depend on the processing

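Of the 26 calls of members, 19 kept their direction and side of the threshold in all 7 alternative settings, 19 in every fit that left out 1 library, and 17 in both. Of the 82 results that did not pass, 7 passed in some alternative and 3 on leaving out some library. In the comparison of icals3m with PD-plug, 1 member result passed when only the groups compared were fitted, WAK2 at 72 h (0.61, adjusted p = 0.027), against 0 in the fit to all libraries. Calls of list genes against the Col-0 effect numbered 39, and 18 in the other matrix, where WAKL7 in icals3m at 48 h reversed, to 0.16; the cause was not tested. Of 19 calls of named list genes, 6 held in all alternatives, 8 in the other matrix and 11 in every fit that left out 1 library. Replicate numbers gave no sign of pairing estradiol with DMSO libraries of the same genotype and time. Deviations of same-numbered libraries correlated from -0.0785 to 0.0857 over 36 pairs. Of 72 libraries, 26 correlated best with their own number, each having 3 candidates. Pairing across genotypes or times was not examined in this way. With a replicate block the members' calls numbered 11 within genotypes, 2 for the lines against Col-0, 0 between the lines, 0 between genotypes in DMSO leaves and 13 between times, as without it, and list calls numbered 38. Depth limits WAK3 and WAK4 most: at 48 h WAK3 was at 0 in 5 of 18 libraries and WAK4 in 9.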
